A study of Arabidopsis halleri with 24 samples.

Results

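AT3G01190, AT5G19890 and AT5G10580 are 3 genes whose signals were high in roots and low in rosette leaves of zinc-accumulating and non-accumulating Arabidopsis plants. They were chosen by name, and each is measured by 1 probe set for which the probe table gives that locus as the only gene: 259276_at, 246149_at and 250438_at. They are 3 of the 13350 genes that the table names from probe sets with 1 gene. Root and leaf signals of these same arrays had led to the choice, so the difference between the organs is described for these genes and not tested. The working name of the set was root class III peroxidases, and it covers 2 of the 3. AT3G01190 and AT5G19890 are among the 73 Arabidopsis thaliana loci on the class III peroxidase list used here. AT5G10580 is not on that list. The list was written from general knowledge and no annotation was used to check it, so AT5G10580 is reported under its locus name with no family given.

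Class III peroxidases are heme enzymes that plant cells secrete into the wall and the vacuole. With hydrogen peroxide as the oxidant they couple phenolic compounds, which joins lignin monomers and cross-links wall proteins and polysaccharides. They can also produce reactive oxygen species that loosen the wall. The family is large in every flowering plant studied, and in roots its members are known from the endodermis, the xylem, the root hairs and the elongation zone.

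The study asked which transcripts go with zinc accumulation and with zinc supply. It measured total RNA, recorded as Arabidopsis halleri, on 24 ATH1 arrays, a platform designed for A. thaliana. The 8 groups of 3 arrays were the whole root system and the rosette leaves of a non-accumulating and of an accumulating bulk, each on control medium and on high zinc, which the labels give as 25 µM. All groups shared a growth room, full mineral medium and 10 h of light. Such bulks are pools of progeny from crossing A. halleri with A. petraea, which does not accumulate zinc, so a bulk is not a line of 1 genotype; the titles do not give this parentage. Replicate 1 of the non-accumulating control roots carries the source name halleri in place of a bulk name and was kept in the group of its title. Whether replicates were separate plants or cultures is not in the labels, and p-values therefore cover only the array-to-array spread, which may be technical.

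Values are MAS5 signals, linear intensities that the authors had scaled so that the trimmed mean of an array was 100.006 to 100.009. The number of arrays limits the precision, since array signals have no counting depth. The organ labels were checked against marker genes. The summed signal of the 9 named photosynthesis genes was 229 to 695 on root arrays and 16523 to 39090 on leaf arrays. The summed signal of the 3 named root markers was 1410 to 2527 in roots and 79.4 to 162 in leaves. Most of the root sum came from PYK10, with a mean of 1579 in roots, against 97.1 for EXPA7 and 141 for EXPA18. All 3 had higher means in roots, but the arrays of EXPA7 overlapped, at 40.8 to 179 in roots and 18.5 to 73.8 in leaves. In whole organs, fewer cells of a type and less RNA per cell cannot be told apart. Mismatches between these transcripts and the probes can reduce a signal, for which reason no level is set against that of another gene as an amount of RNA.

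AT3G01190, a class III peroxidase, gave leaf signals near the bottom of the scale. In non-accumulating roots its signals were 629.8, 584 and 549.7 on control medium and 524, 599 and 339 on high zinc. In accumulating roots they were 558, 967 and 837 on control medium and 846, 829 and 606 on high zinc. The lowest root array thus belonged to the non-accumulating bulk on high zinc and the highest to the accumulating bulk on control medium. In non-accumulating leaves the signals were 8.78, 4.14 and 7.27 on control medium and 11.8, 7.82 and 3.17 on high zinc. In accumulating leaves they were 17.4, 6.97 and 6.05 on control medium and 18.5, 3.69 and 21.4 on high zinc. No leaf array reached the median signal of all arrays, 54.8, and leaf and root arrays were far apart.

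AT5G19890 is the other class III peroxidase of the set. In non-accumulating roots its signals were 1418, 1386 and 1383 on control medium and 2345, 1682 and 1224 on high zinc. In accumulating roots they were 1073, 2136 and 1419 on control medium and 1291, 1789.96 and 1287 on high zinc. The 3 non-accumulating control arrays were nearly equal, and each of the other root groups spanned a range that took in their values. In leaves the signals were 58.7, 42.6 and 51.5 for non-accumulating control plants and 56.9, 48.9 and 45.9 on high zinc. In accumulating leaves they were 35.6, 46.5 and 37.1 on control medium and 54.2, 48.1 and 39.8 on high zinc. The leaf groups overlapped, and 2 of 12 leaf arrays lay above 54.8.

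AT5G10580, which is not on the peroxidase list, was also high in roots and low in leaves. In non-accumulating roots its signals were 2759, 2749 and 1558 on control medium and 1939, 2492 and 1595 on high zinc. In accumulating roots they were 1857, 2297 and 1898 on control medium and 2382, 1959 and 2098 on high zinc. Both the lowest and the highest root array belonged to the non-accumulating control group. In leaves the signals were 75.1, 57.3 and 48.1 for non-accumulating control plants, 71.1, 83.1 and 37.5 for the same bulk on high zinc, 75.7, 81.2 and 60.1 for accumulating control plants, and 61.7, 59.3 and 55.7 for accumulating plants on high zinc. Replicate 3 gave the lowest value in each of the 4 leaf groups, and 10 of 12 leaf arrays lay above 54.8.

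**Figure D1:**
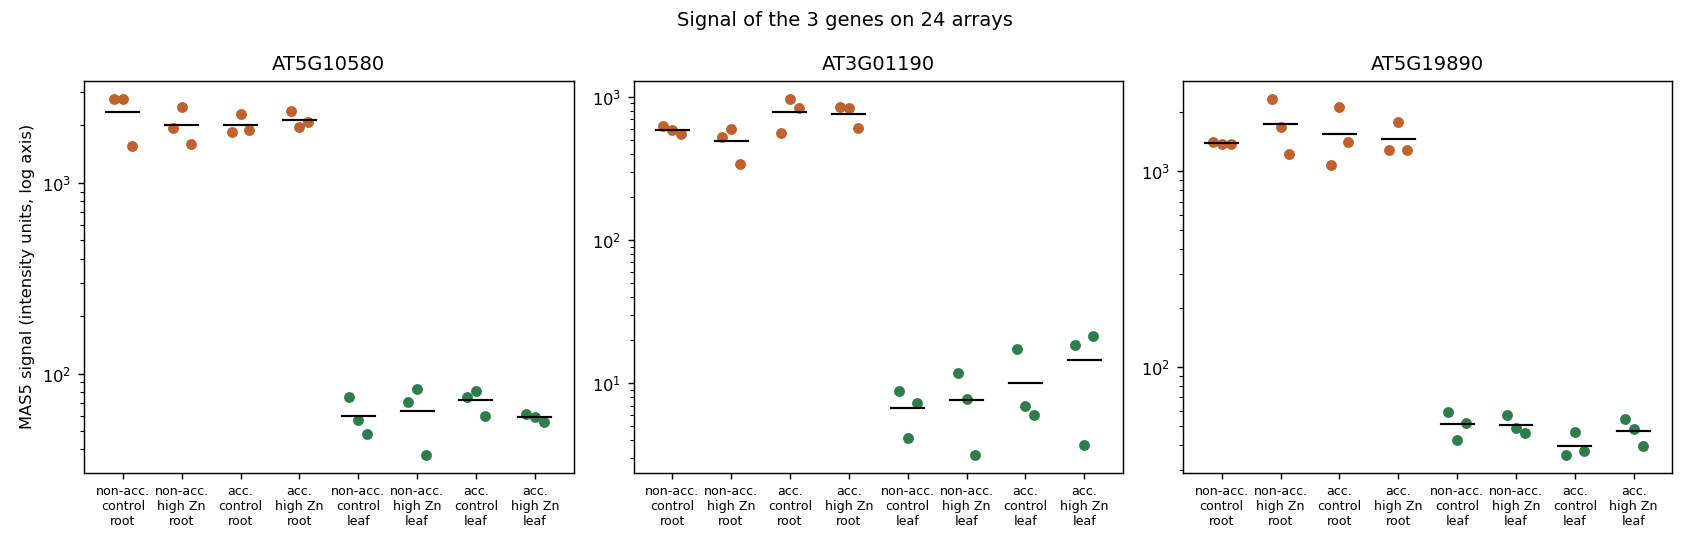
MAS5 signal (intensity units, log axis) of AT5G10580, AT3G01190 and AT5G19890 on each of the 24 arrays, by group, with 1 point per array. The 12 root arrays of each gene lie above its 12 leaf arrays, and the groups within an organ overlap in nearly every case.

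The ordering of the root groups differed from gene to gene. The mean signal of AT3G01190 was 787 (SD 209, n = 3) in accumulating control roots, 760.4 (SD 134) in accumulating high-zinc roots, 588 (SD 40.2) in non-accumulating control roots and 487 (SD 134) in non-accumulating high-zinc roots. The step from the second of these to the third was larger than either SD, although the ranges overlapped, and the other neighbouring means differed by less than 1 of their SDs. The mean of AT5G19890 was 1750.4 (SD 564, n = 3) in non-accumulating high-zinc roots, 1542 (SD 542) in accumulating control roots, 1456 (SD 289) in accumulating high-zinc roots and 1396 (SD 19.6) in non-accumulating control roots. The mean of AT5G10580 was 2355 (SD 691, n = 3) in non-accumulating control roots, 2146 (SD 216) in accumulating high-zinc roots, 2017 (SD 243) in accumulating control roots and 2009 (SD 452) in non-accumulating high-zinc roots. For these last 2 genes no neighbouring means differed by more than the larger of their SDs.

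In leaves the group means of AT3G01190 ran from 14.5 (SD 9.52, n = 3) in accumulating high-zinc plants through 10.1 (SD 6.29) and 7.59 (SD 4.31) to 6.73 (SD 2.36) in non-accumulating control plants. Those of AT5G19890 ran from 50.9 (SD 8.08, n = 3) in non-accumulating control leaves through 50.6 (SD 5.70) and 47.3 (SD 7.23) to 39.8 (SD 5.90) in accumulating control leaves. Those of AT5G10580 ran from 72.3 (SD 11.0, n = 3) in accumulating control leaves through 63.9 (SD 23.6) and 60.1 (SD 13.7) to 58.9 (SD 3.01) in accumulating high-zinc leaves. For each gene, adjoining leaf means lay within the larger of their SDs, except the step from 47.3 to 39.8 of AT5G19890, whose ranges overlapped.

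Over all 12 arrays per organ, AT5G10580 had a mean signal of 2132 (SD 406) in roots and 63.8 (SD 13.8) in leaves. AT5G19890 had 1536 (SD 382) in roots and 47.2 (SD 7.46) in leaves. AT3G01190 had 656 (SD 177) in roots and 9.75 (SD 6.17) in leaves. For all 3 genes every root array lay above every leaf array, as it did for 11.1% of the 14403 probe sets tested across the organs. Since root and leaf values had chosen the genes, nothing is read from this.

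The size of the organ difference depended on the scale for AT3G01190 in particular. Root minus leaf on the log2(signal + 16) scale was 4.75 for AT5G10580, 4.69 for AT3G01190 and 4.59 for AT5G19890, which placed them at ranks 18, 20 and 22 of 14403. With a pseudocount of 1 the differences were 5.05, 6.09 and 4.98, and with 64 they were 4.09, 3.25 and 3.82, in the same order of genes. AT3G01190 therefore came first with the smallest value added before the logarithm and last with the largest.

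The organ difference was present in each of the 4 combinations of bulk and zinc. On the log2(signal + 16) scale root minus leaf of AT3G01190 was 4.73 and 4.39 in the non-accumulating bulk on control medium and high zinc, and 4.93 and 4.71 in the accumulating bulk. For AT5G19890 it was 4.41 and 4.68 in the non-accumulating bulk and 4.75 and 4.53 in the accumulating bulk. For AT5G10580 it was 4.93 and 4.69 in the non-accumulating bulk and 4.53 and 4.85 in the accumulating bulk. No detection calls were used here, so whether the leaf signals of AT3G01190 were above background is not known, and no ratio of root to leaf signal is given.

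Within roots the spread of the 3 genes was near or above that of the middle probe set. The coefficient of variation over 12 root arrays was 19.0% for AT5G10580, 24.9% for AT5G19890 and 27.1% for AT3G01190. On the log2 scale their SDs were 0.27, 0.33 and 0.40, against a median of 0.26 over the 12489 probe sets tested in roots. Of those probe sets, 56.5%, 72.7% and 83.9% had a lower SD.

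**Figure D2:**
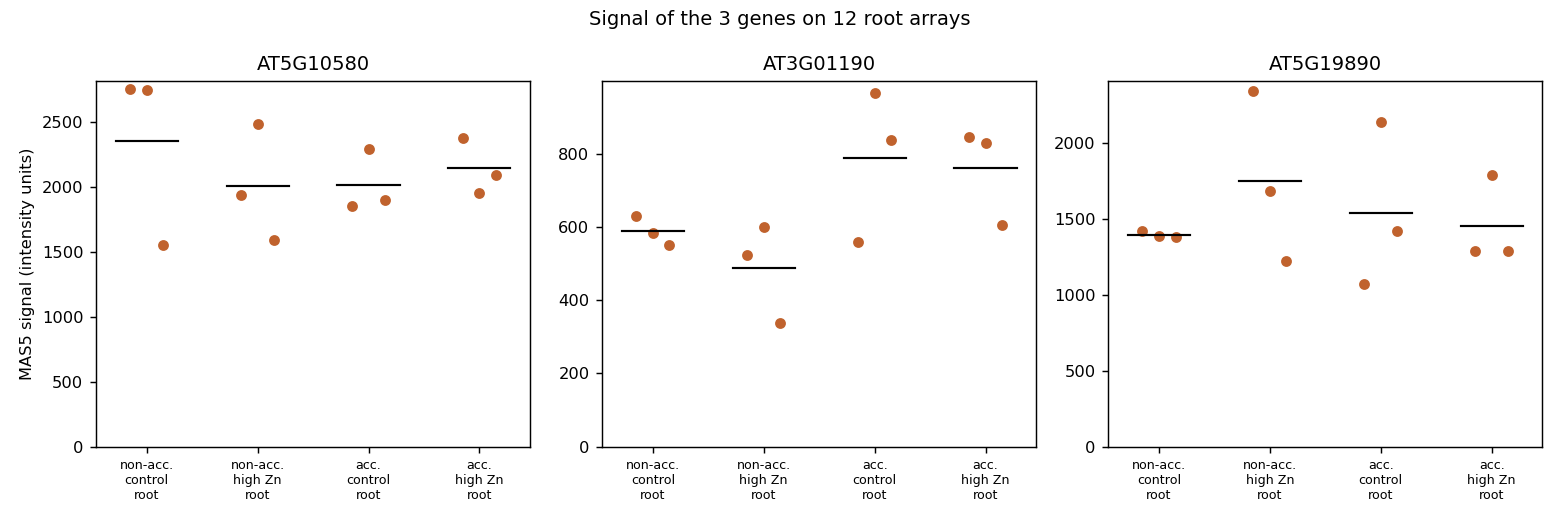
MAS5 signal (intensity units, linear axes from 0) of the 3 genes on the 12 root arrays, by bulk and zinc; points are arrays and lines are group means. AT3G01190 is higher on every accumulating array (606 to 846) than on every non-accumulating array (339 to 599) on high zinc. The same holds, in that direction, for 5.85% of the 12489 probe sets tested in roots. The other pairs of groups overlap.

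No bulk difference in roots passed the test for any of the 3 genes. The test was limma on log2(signal + 16) over 12 arrays, adjusted over all probe sets tested, and the difference is accumulating minus non-accumulating, averaged over both media. AT3G01190 differed by 0.51 (SE 0.17, 95% interval 0.14 to 0.88), with an unadjusted p of 0.0102 and an adjusted p of 0.624 by limma. The difference was 0.38 on control medium and 0.65 on high zinc. AT5G10580 differed by -0.03 (SE 0.16, interval -0.39 to 0.32, adjusted p = 0.975 by limma). AT5G19890 differed by -0.07 (SE 0.19, interval -0.48 to 0.33, adjusted p = 0.958 by limma). The background was 0% of 12489 probe sets called, with 862 at an unadjusted p under 0.05.

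The groups of AT3G01190 did not overlap on high zinc, where all 3 accumulating root arrays lay above all 3 non-accumulating ones. This was so, in that direction, for 5.85% of the 12489 probe sets tested in roots. On control medium the lowest accumulating array, 558, lay within the non-accumulating range of 549.7 to 629.8, and the other 2 lay above it. Leaving out any 1 of the 12 arrays gave bulk differences of 0.40 to 0.63 for this gene, with no adjusted p under 0.498 by limma.

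Zinc supply gave no called difference in roots either. High zinc minus control, averaged over the bulks, was -0.16 (SE 0.17, 95% interval -0.53 to 0.21, adjusted p = 0.87 by limma) for AT3G01190. It was 0.12 (SE 0.19, interval -0.29 to 0.52, adjusted p = 0.926 by limma) for AT5G19890 and -0.06 (SE 0.16, interval -0.41 to 0.30, adjusted p = 0.957 by limma) for AT5G10580. The background was again 0% of 12489, with 854 at an unadjusted p under 0.05. In the non-accumulating bulk alone the differences were -0.30 for AT3G01190, 0.27 for AT5G19890 and -0.20 for AT5G10580. In the accumulating bulk they were -0.03, -0.04 and 0.09, and in neither bulk did control and high-zinc arrays of any of the 3 genes separate.

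The zinc response was then compared between the bulks as an interaction, which is the response in the accumulating bulk minus that in the non-accumulating bulk. It was 0.27 (SE 0.34, 95% interval -0.47 to 1.01) for AT3G01190, -0.32 (SE 0.38, interval -1.13 to 0.49) for AT5G19890 and 0.29 (SE 0.33, interval -0.41 to 1.00) for AT5G10580. The adjusted p was 0.998 by limma for each, against 0% of 12489 probe sets called and 470 at an unadjusted p under 0.05. The intervals still held responses that differed between the bulks by a log2 value of 1.00 for AT5G10580, 1.01 for AT3G01190 and -1.13 for AT5G19890.

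**Figure D3:**
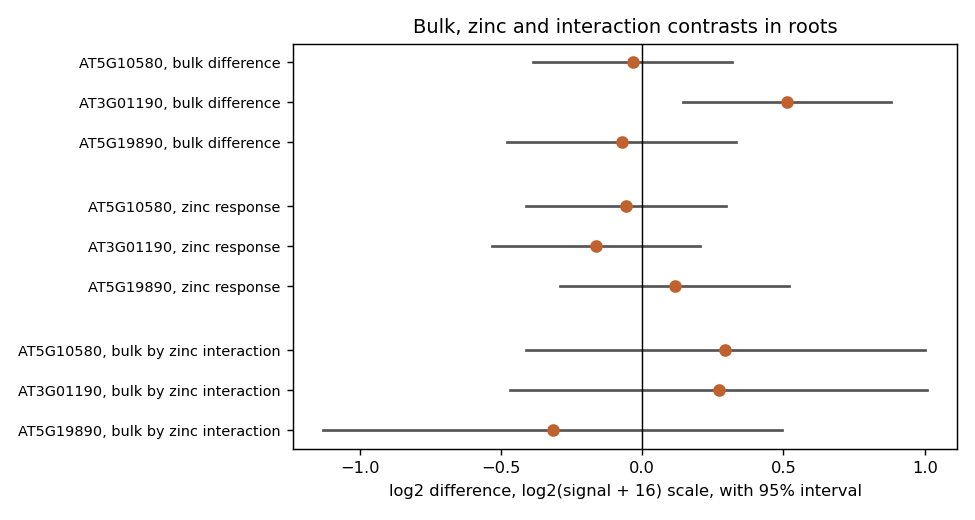
Bulk difference, zinc response and their interaction in roots for each gene, as log2 differences with 95% intervals from limma over 12 arrays. The interval of AT3G01190 for the bulk difference, 0.14 to 0.88, is the 1 that leaves out 0, and its adjusted p is 0.624.

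In leaves AT5G10580 was the 1 gene of the 3 that passed the filter on low signals, which required a group mean above 53.3. Its bulk difference was 0.09 (SE 0.17, 95% interval -0.28 to 0.46, adjusted p = 0.999 by limma), with 0% of 12688 probe sets called and 546 at an unadjusted p under 0.05. Its zinc response was -0.10 (SE 0.17, interval -0.47 to 0.27, adjusted p = 0.903 by limma), with 0.0315% called. Its interaction was -0.27 (SE 0.34, interval -1.01 to 0.47, adjusted p = 1 by limma), with 0% called and 197 at an unadjusted p under 0.05. The leaf groups of all 3 genes overlapped in each comparison of bulk or zinc. AT3G01190 and AT5G19890 lay below the filter in leaves and were not tested there.

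The other class III peroxidases were set beside these genes, root against leaf. The probe table named 54 of the 73 loci, of which 52 are not AT3G01190 or AT5G19890, and 33 of the 52 passed the filter over all 24 arrays. By limma, 20 of the 33 were higher in roots, 5 were lower and 8 were not called, with a median difference of 1.21 against 0.13 over all probe sets tested. Of all 14403 probe sets tested, 67.9% were called between the organs, 5826 higher and 3951 lower in roots. Of the 20 higher in roots, 13 had a mean leaf signal below the filter value of 54.8. The 5 lower in roots all had a mean root signal below it. The filter works on group means, so such a locus can still pass through a group of its lower organ. AT1G71695, 1 of the 5, had a mean of 62.9 in non-accumulating high-zinc roots. With a low mean in 1 organ the filter can itself favour the direction called, and the counts are given as a description. The 19 loci that did not pass had organ means of at most 49.7.

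On this scale AT3G01190 and AT5G19890, chosen for their root signal, ranked 1 and 2 of the 35 peroxidases. With a pseudocount of 1 they ranked 1 and 6, with AT5G66390 second at 5.73, and with 64 they ranked 3 and 1. With 16 the next was AT5G64100, which was higher in roots by 4.11 (SE 0.14) and had signals of 324 to 780.0 in roots and 7.21 to 46.2 in leaves. AT4G33420 was higher by 4.00 (SE 0.17), with 851 to 1695 in roots and 31.6 to 126 in leaves. AT5G15180 was higher by 3.97 (SE 0.20), with 117 to 1134 in roots and 2.36 to 25.5 in leaves. AT4G11290 was higher by 3.61 (SE 0.20), with 181 to 600.1 in roots and 4.79 to 72.1 in leaves. All 4 are listed class III peroxidases with no name in the table beyond the locus. They are named here for their large organ difference. Every root array of each lay above every leaf array, as for 11.1% of the 14403 probe sets tested across the organs.

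The 5 peroxidases that were lower in roots differed by less than the 4 loci named above for their large organ difference. PRX52 and AT5G64120 still differed by more, in size, than some loci called higher in roots, such as AT5G39580 at 1.49 (SE 0.18). PRX52 was lower by a log2 difference of -2.20 (SE 0.28), with signals of 25.2 to 62.6 in roots and 72.4 to 952 in leaves. AT5G64120 differed by -1.64 (SE 0.22), with 3.58 to 62.6 in roots and 34.9 to 116 in leaves. AT1G71695 differed by -0.74 (SE 0.22), AT4G17690 by -0.28 (SE 0.11) and AT1G77100 by -0.26 (SE 0.10). The call of AT4G17690 was lost without the filter on low signals (adjusted p = 0.0521 by limma) and without 1 of 12 of the 24 arrays, where its adjusted p reached 0.0816 when the second replicate of non-accumulating control leaves was left out. PRXR1 had a mean of 6199 in roots and 5883 in leaves and was not called, at 0.09.

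**Figure D4:**
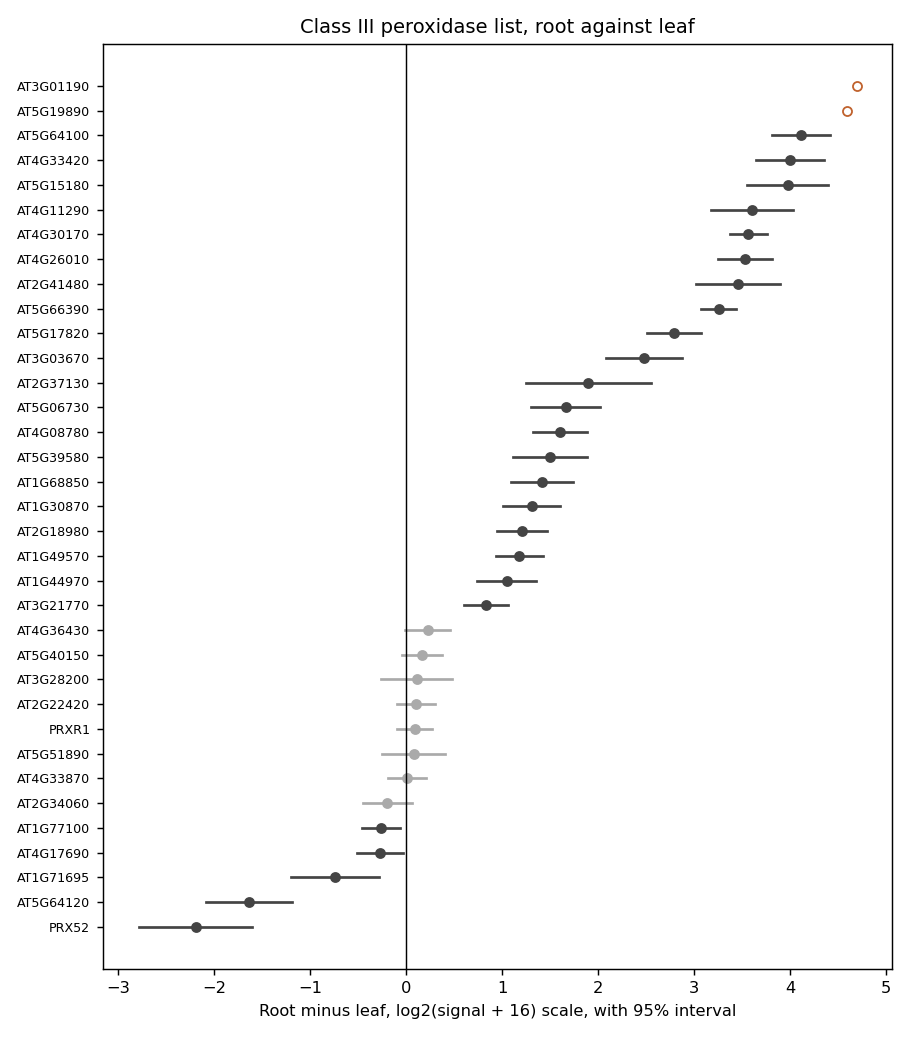
Root minus leaf difference in log2(signal + 16) over 24 arrays of the class III peroxidases that passed the filter, in rank order; bars are 95% intervals from limma, dark points were called and grey ones were not. AT3G01190 and AT5G19890 are open points with no interval, since root signal chose them. Of the other 33 loci 20 were called higher in roots and 5 lower. The mean signal in the lower organ was below the filter value for 13 of the 20 and for all 5.

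Within roots no class III peroxidase was called for bulk, zinc or interaction among the 31 tested by limma. The share called over all 12489 probe sets was also 0% in each of these comparisons. The median bulk difference of the 31 was 0.11, with 21 above 0, against a median of -0.02 over all probe sets tested. The single values ran from -0.26 to 0.65, and AT3G01190, at 0.51, was 1 of 3 with an unadjusted p under 0.05. The median zinc response was 0.03, with 16 above 0, against -0.00025 over all, and the median interaction was -0.14, with 11 above 0, against 0.02 over all. In leaves none of the 22 tested was called, against 0% of all 12688 for bulk, 0.0315% for zinc and 0% for the interaction. The medians of the 22 were 0.07 for bulk, 0.05 for zinc and 0.03 for the interaction. Over all probe sets tested in leaves they were -0.03, 0.0004 and 0.03. At an unadjusted p under 0.05 by limma stood 0, 2 and 2 of the 22, and 546, 1190 and 197 of all 12688.

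AT1G30870, also a listed class III peroxidase, had the smallest unadjusted p of the family in roots. Its signals in non-accumulating roots were 31.8, 32.3 and 39.7 on control medium and 90.1, 126 and 70.9 on high zinc. In accumulating roots they were 68.0, 87.4 and 75.6 on control medium and 87.3, 111 and 77.1 on high zinc. The non-accumulating control group thus lay below the other 3, which overlapped one another. Its high-zinc arrays lay above its control arrays in the non-accumulating bulk, as for 5.71% of probe sets tested in roots, and its accumulating arrays lay above the non-accumulating ones on control medium, as for 4.39%. The zinc response averaged over the bulks was 0.66 (SE 0.14, unadjusted p = 0.000384, adjusted p = 0.457 by limma), the bulk difference 0.42 (SE 0.14, adjusted p = 0.624 by limma) and the interaction -0.91 (SE 0.28, adjusted p = 0.998 by limma), so none of the 3 passed.

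For AT5G15180 the signals in non-accumulating roots were 603, 608 and 313 on control medium and 117, 273 and 302 on high zinc. In accumulating roots they were 489, 373 and 1134 on control medium and 597, 462 and 340 on high zinc. In the non-accumulating bulk every control array lay above every high-zinc array, as for 6.49% of probe sets tested in roots, and in the accumulating bulk they overlapped. Its zinc response was -0.75 (SE 0.30, adjusted p = 0.681 by limma) and its bulk difference 0.65 (SE 0.30, adjusted p = 0.712 by limma). AT5G39580 had 164, 193 and 203 in non-accumulating control roots and 391, 469 and 327 on high zinc. In accumulating roots it had 125, 298 and 258 on control medium and 254, 478 and 135 on high zinc. Its zinc response was 0.63 (SE 0.26, adjusted p = 0.692 by limma). In the non-accumulating bulk its high-zinc arrays stood above the control arrays, as for 5.71%, and in the accumulating bulk they overlapped.

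**Figure D5:**
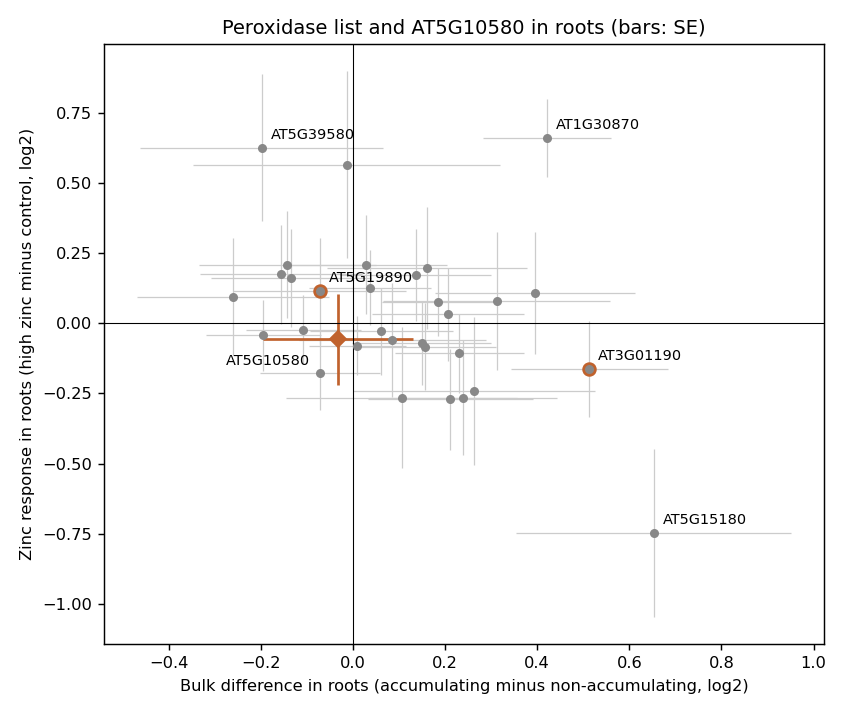
Bulk difference and zinc response in roots (log2, 12 arrays, bars are SE) of the 31 class III peroxidases that passed the root filter, with AT3G01190 and AT5G19890 marked, and of AT5G10580 (diamond). Bulk differences of the 31 lie between -0.26 and 0.65 and zinc responses between -0.75 and 0.66. No locus was called, and 0% of all 12489 probe sets tested in roots were.

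Other genes of the peroxidases' surroundings were few in the probe table, with 1 named gene on each of 3 lists. AT1G19230, on the list of hydrogen peroxide production and removal, was higher in roots by 1.42 (SE 0.08, adjusted p = 2.29e-12 by limma). GSO1, a receptor kinase needed for an intact Casparian strip, was higher in roots by 0.98 (SE 0.14, adjusted p = 3.28e-06 by limma). HCT, an enzyme of lignin monomer synthesis, was not called between the organs, at 0.28 (SE 0.16, adjusted p = 0.134 by limma). Between the organs 67.9% of the 14403 probe sets tested were called. None of the 3 was called for bulk or zinc in roots, where 0% of 12489 probe sets were called for either. Bulk differences were 0.12, 0.21 and 0.03 and zinc responses 0.35, 0.00468 and -0.04, in that order.

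The signals of the 3 genes were then set against each other over the 12 root arrays, as log2(signal + 16), with permutation tests over 3 pairs. AT5G10580 and AT3G01190 gave a Pearson r of 0.399 (permutation p = 0.2, adjusted 0.432) and a Spearman rho of 0.483 (p = 0.116, adjusted 0.349). AT3G01190 and AT5G19890 gave r of 0.335 (permutation p = 0.288, adjusted 0.432) and rho of 0.315 (p = 0.32, adjusted 0.354). AT5G10580 and AT5G19890 gave r of 0.154 (permutation p = 0.633, adjusted 0.633) and rho of 0.294 (p = 0.354, adjusted 0.354). No pair passed. Without the 2 arrays farthest from the median of the first gene, r was 0.602, -0.087 and 0.328, so the sign of the second pair rested on those arrays. With group means removed r was 0.565, 0.764 and 0.263, with an adjusted exact permutation p of 0.0949 for the first pair and 0.0984 for the second.

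For each gene the 5 named genes with the most similar course over the 12 root arrays were looked up among 6791 probe sets with 1 gene, as a description. The points share arrays and their scaling, and so many probe sets give high correlations at 12 arrays. For AT3G01190 these were AT4G12070 (r 0.853), ATSYTF (r 0.845), SPR1, a microtubule-associated protein (r 0.837), AT4G29520 (r 0.829) and AT3G08910 (r 0.827). For AT5G19890 they were AT3G61490 (r 0.935), AT4G21450 (r 0.859), PLIM2b, an actin-binding protein (r 0.854), Cpn60beta2, a plastid chaperonin subunit (r 0.854), and AT1G32700 (r 0.847). For AT5G10580 they were AT2G42490 (r 0.919), AT5G01740 (r 0.902), AT5G60670 (r 0.889), AT4G39955 (r 0.888) and ARD4 (r 0.880). None of the 15 was a listed peroxidase. Their root minus leaf differences ran from -1.23 for ARD4 to 2.76 for AT5G01740, below those of the 3 genes.

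Against the other class III peroxidases in roots the correlations were mixed. AT3G01190 correlated above 0 with 20 of 30, with a median r of 0.08, from -0.79 for AT4G33870 to 0.571 for PRXR1. AT5G19890 correlated above 0 with 17 of 30, with a median of 0.18, from -0.84 for AT3G21770 to 0.672 for AT5G39580. AT5G10580 correlated above 0 with 13 of 31, with a median of -0.07, from -0.69 for AT1G68850 to 0.763 for PRXR1. The medians over the 6791 probe sets with 1 gene that passed the root filter were -0.06, -0.00 and -0.02. These values are over 12 arrays that share their scaling and carry no p.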

How the data were processed

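Signals of 24 ATH1 arrays in 8 groups of 3 were used. The authors made the deposited intensity values with MAS5, per the submitters' processing notes. The sources used here give no version, scaling target or detection calls. The trimmed mean (2% at each end) was 100.006 to 100.009 on every array, so no further scaling was applied. Of 22810 probe sets, 64 controls were left out. Genes were named from the platform's probe table, for 13513 probe sets with 1 symbol.

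Group means of log2(signal + 16) were fitted and tested with limma 3.58.1 (R 4.3.3; eBayes with a variance trend), and p-values were adjusted by Benjamini-Hochberg over all probe sets tested, with a threshold of 0.05. Roots and leaves were fitted apart with 12 arrays each, and root against leaf with 24. A probe set was tested when its highest group mean was above the median of the fit, which corresponds to 56.3 (roots), 53.3 (leaves) and 54.8 (all arrays). This left 12489, 12688 and 14403. Fold changes are on this log2 scale and understate the change of low signals. Correlations used Python 3.11.15 with NumPy 2.4.6 and 100000 permutations, or exact enumeration within groups.

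The 3 genes and all lists were chosen with earlier results of these data known. The 73-locus family list and 72 genes on other lists come from general knowledge; PRX52 and PRXR1 were matched by symbol after the probe table was seen. Besides the 3 genes, the text names up to 6 peroxidases with the largest called organ difference in each direction, the 3 with the smallest p for bulk and for zinc in roots, called members of other lists, and 5 nearest genes each; HCT, PRXR1 and AT5G66390 were named after their values were seen. The test was also run on simulated data in which arrays varied independently. Such data hold no deviation shared between arrays, so the run cannot show how the test behaves where arrays share one. Alternatives were other pseudocounts, filters and normalizations, no trend, a replicate block, array weights, all 24 arrays fitted at once, leaf arrays without replicate 3, and leaving out each array in turn.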

Additional observations from a re-analysis of the deposited data

How the results depend on the processing

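No call for bulk, zinc or interaction was gained under any alternative run, for the 3 genes in roots and for AT5G10580 in leaves. For AT3G01190 and AT5G19890, below the filter in leaves, no leaf result under an alternative is given. AT5G10580 changed sign around 0: its bulk difference was 0.00941 in roots with median centring, and in leaves -0.0265 with array weights and -0.0359 without the leaf arrays of replicate 3. With 1 array left out at a time, its root values were -0.17 to 0.0497 for bulk and -0.19 to 0.0195 for zinc, and its leaf values -0.0450 to 0.18 and -0.19 to 0.0360. For AT5G19890 in roots these ranges were -0.20 to 0.0444 for bulk and -0.00146 to 0.25 for zinc, and for AT5G39580 the bulk difference ran from -0.41 to 0.0143. Peroxidases called higher on zinc in leaves went from 0 to 3 with array weights (PRXR1 at 0.39, AT5G19880 at 0.48 and AT5G51890 at 0.63) and to 1 without replicate 3 (AT1G71695 at 0.63). Those called lower in roots went from 5 to 3 when every array of a group had to pass the filter. Over all probe sets, zinc in leaves called 4, but 2427 with array weights, 1219 without replicate 3, 117 with 1 fit of all arrays and 1 to 12 with 1 array left out; bulk in leaves called 0 and up to 234 with array weights. In roots up to 1 probe set was called for bulk and up to 6 for zinc with 1 array left out. The causes were not tested.

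The labels tie no shared origin to the replicate numbers, and same-numbered deviations did not all correlate above 0.1, so the numbers were not treated as pairs. In roots the correlations were -0.18 to 0.11 for number 1, -0.05 to 0.35 for number 2 and 0.13 to 0.40 for number 3; in leaves they were -0.02 to 0.28, 0.19 to 0.51 and 0.20 to 0.72. All pairs of root number 3 and of leaf numbers 2 and 3 were thus above 0.1, and whether these numbers mark a shared batch was not tested. Of the arrays, 9 of 12 root arrays and 8 of 12 leaf arrays correlated best with their own number. With the replicate number as a block, zinc in leaves called 61 probe sets. No call of the 3 genes in roots or of AT5G10580 in leaves changed. The correlation of AT5G10580 and AT5G19890 became -0.22 with the replicate block and -0.17 with quantile normalization.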

Other observations

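Some of the loci described have listed peroxidases next to them in the locus numbering, whose values in the organs were as follows. AT5G19880, numbered next to AT5G19890, had a mean signal of 7.52 in roots (5.38 to 17.6) and 43.1 in leaves (18.3 to 67.9), while AT5G19890 had 1536 and 47.2. AT5G19880 did not pass the filter over all arrays, and its organ difference was not tested. AT5G64100 was higher in roots by 4.11, AT5G64120 lower by a log2 difference of -1.64, and AT5G64110 between them in number had 41.9 in roots and 36.1 in leaves, below the filter.

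PRX52 varied widely among leaf arrays. Its signals were 404, 127 and 76.1 in non-accumulating control leaves, 266, 223 and 72.4 on high zinc, 234, 470 and 109 in accumulating control leaves, and 802, 952 and 191 on high zinc. Replicate 3 was the lowest array in each of the 4 groups, as it was for AT5G10580 in leaves. For AT4G33420 replicate 3 was instead the highest leaf array in each of the 4 groups, at 105, 126, 81.5 and 119. The share of all probe sets with either order was not counted.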
